A study of Mus musculus with 22 samples.

Results

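Collagen VI, the fibril-associated collagens XII, XIV and XVI, the anchoring-fibril collagen VII and the short-chain collagen VIII were followed through 8 genes chosen by name: Col6a1, Col6a2, Col6a3, Col7a1, Col8a1, Col12a1, Col14a1 and Col16a1. These are 8 of 55414 genes in the count table, and all 8 had enough counts to be tested. RNA was sequenced in bulk from mouse back-skin fibroblasts, sorted as live CD34-positive, PDGFRα-positive cells after CD31, CD45, CD117 and EpCAM had been gated out. Every mouse had surgery. EXP mice received an expander hydrogel under the skin and CTRL mice received none. There were 9 libraries from day 1 (CTRL 4, EXP 5), 6 from day 2 (CTRL 3, EXP 3) and 7 from day 4 (CTRL 4, EXP 3). Strain, age and sex are not given in the sources used here. CTRL mice carry the surgical wound too, and unoperated skin was not analysed here.

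Collagen VI is built from α1, α2 and α3 chains that assemble inside the cell and are secreted as beaded microfilaments close to the cell surface, where they bind matrix and receptors. FACITs, the fibril-associated collagens with interrupted triple helices, sit on the surface of collagen I fibrils and affect how the fibrils are spaced and joined. Collagen VII forms the anchoring fibrils that hold the epidermal basement membrane to the dermis. Collagen VIII is a short-chain collagen that makes hexagonal networks, best known in vessel walls and in the basement membrane of the corneal endothelium.

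The promoters of 3 chains of collagen VI are shown because 2 of these genes kept a nearly fixed ratio in every library while Col6a3 did not follow them, and that of Col8a1 because, of the genes with a window, its level differed most between groups. The sequences are from RefSeq on mouse build GRCm38.p6, all on the minus strand, and give the 250 bases before the annotated start in 5′ to 3′ order. Capitals mark matches on either strand to any of 7 short motifs: the TATA box (TATAAA), the CCAAT box (CCAAT), the GC box (GGGCGG), AP-1 (TGANTCA), a SMAD element (CAGAC), a TEAD element (GGAATG) and the E-box (CACGTG). Of 2 annotated starts of Col6a2, the more downstream is shown.
Col6a1 chr10:76726045-76726294: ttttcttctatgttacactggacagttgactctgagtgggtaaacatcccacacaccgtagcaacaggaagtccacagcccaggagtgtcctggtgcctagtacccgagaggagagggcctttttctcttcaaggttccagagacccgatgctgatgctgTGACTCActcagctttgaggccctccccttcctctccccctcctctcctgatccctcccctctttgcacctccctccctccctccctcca
Col6a2 chr10:76623405-76623654: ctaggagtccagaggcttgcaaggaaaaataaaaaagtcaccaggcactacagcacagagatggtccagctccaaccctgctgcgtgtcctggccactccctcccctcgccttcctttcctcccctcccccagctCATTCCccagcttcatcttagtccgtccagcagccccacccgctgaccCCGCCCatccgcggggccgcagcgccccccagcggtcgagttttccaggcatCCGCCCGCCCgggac
Col6a3 chr1:90843972-90844221: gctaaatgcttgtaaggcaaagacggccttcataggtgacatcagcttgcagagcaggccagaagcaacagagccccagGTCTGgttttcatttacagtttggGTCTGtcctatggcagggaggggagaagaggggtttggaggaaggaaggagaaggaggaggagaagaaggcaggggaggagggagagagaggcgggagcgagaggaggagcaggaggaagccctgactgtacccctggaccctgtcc
Col8a1 chr16:57754738-57754987: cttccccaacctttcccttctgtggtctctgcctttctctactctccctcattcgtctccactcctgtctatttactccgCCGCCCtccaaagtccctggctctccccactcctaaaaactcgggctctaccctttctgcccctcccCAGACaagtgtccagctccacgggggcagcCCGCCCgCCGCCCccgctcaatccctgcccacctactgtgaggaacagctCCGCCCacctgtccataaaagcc

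The 3 collagen VI windows shown held different motifs. That of Col6a1 had a single AP-1 match, that of Col6a2 had 3 GC boxes, 2 of them overlapping, and a TEAD match, and that of Col6a3 had 2 SMAD matches. The window of the other Col6a2 start had a GC box and, like that of Col6a3, a SMAD match. The Col8a1 window had 4 GC boxes and a SMAD match. Entries existed for 6 of the 8 genes, in 7 windows of 300 bases that reach 50 bases past the start, and not for Col12a1 and Col14a1. A GC box was in 5 of the 7 windows, against 35.7% of all 32851 windows in the table. AP-1 was in 1 of 7 against 7.8%, TEAD in 1 of 7 against 14.7%, SMAD in 4 of 7 against 49.6%, and CCAAT in 2 of 7 against 37.4%. The TATA box was in 0 of 7 against 13.6% and the E-box in 0 of 7 against 7.2%. These matches describe letters only.

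Library totals ran from 21461294 to 30210204 counts. The lowest count of any of the 8 genes in any library was 82, so none was near the floor of 3 counts. In CPM, meaning counts relative to the TMM-scaled library total, that floor is 0.0993 to 0.140. Summed over 8 fibroblast markers (Pdgfra, Cd34, Col1a1, Col1a2, Dcn, Lum, Dpt and Pdgfrb), levels were 41272 to 289314 CPM in all libraries. Keratinocyte markers summed to at most 52.5 CPM, endothelial markers to 58.0 CPM, and pericyte and smooth muscle markers to 129 CPM. Hematopoietic markers reached 165 CPM and adipocyte markers 502 CPM. Libraries also fell on 2 sides of a split that the labels do not record: a set of 192 genes correlated with Rnf10 left a gap between 7 libraries on a high side and 15 on a low side. CTRL replicates 1, 2 and 3 and EXP replicates 1 and 2 of day 1, and CTRL replicates 3 and 4 of day 4, were on the high side. For the 8 genes, within-side values are given beside calls on days 1 and 4 and wherever they moved a log2 fold change by over 1.5 times. Since the sorted cells were measured in bulk, fewer cells of a kind and less RNA per cell cannot be told apart.

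**Figure D1:**
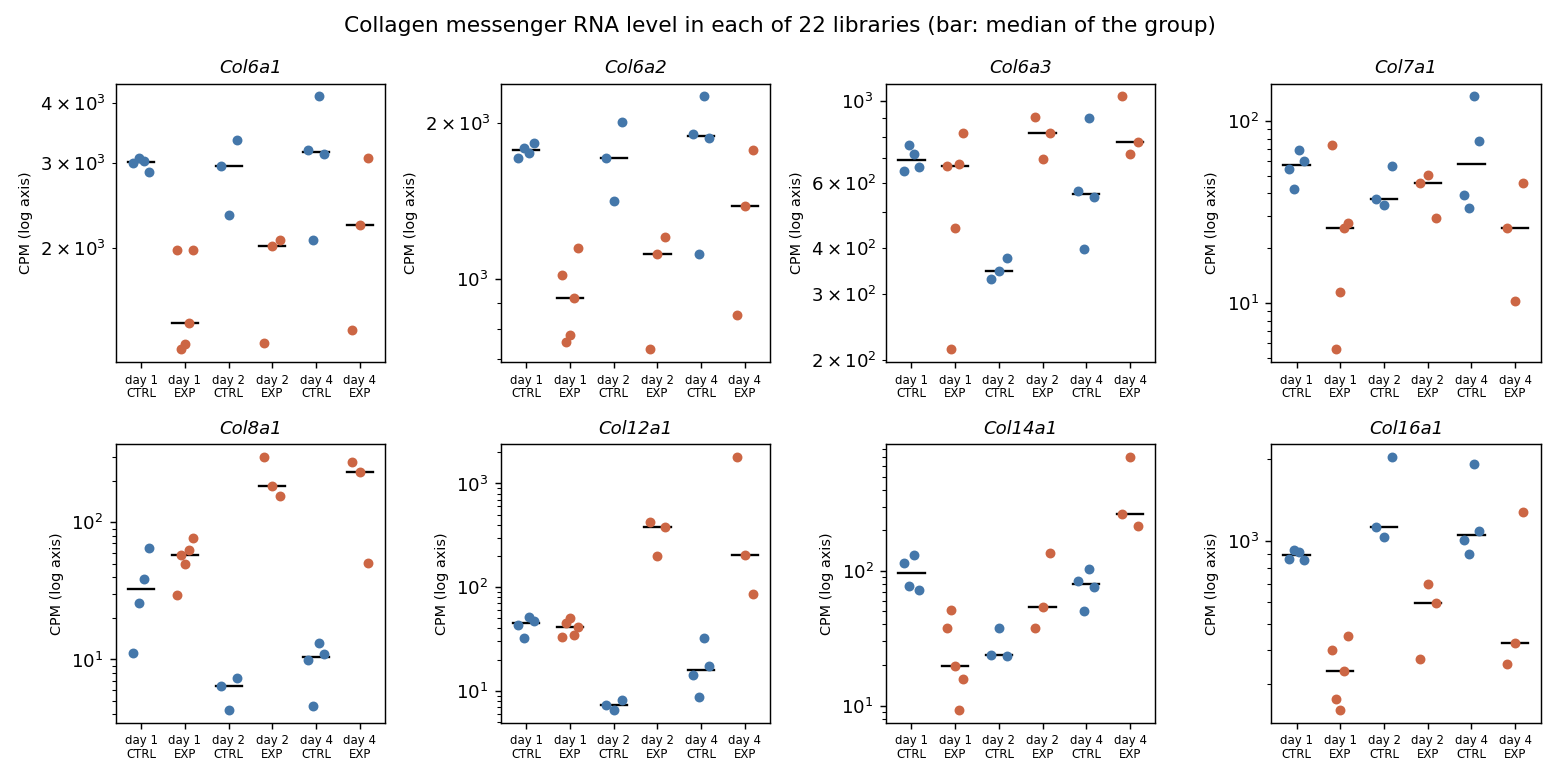
Level of each of the 8 genes in every library, in CPM on a log axis, by group and day; each point is a library and each bar a group median. Col8a1 and Col12a1 lie apart between EXP and CTRL on days 2 and 4 and overlap on day 1, whereas Col6a1, Col6a2 and Col16a1 are lower in EXP on day 1.

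Per kilobase of exon, the genes spanned a wide range of levels, from the abundant α1 chain of collagen VI to collagens VII, VIII and XII. In CTRL on day 1 the level was 683 ± 18.8 CPM per kilobase (SD, n = 4) for Col6a1, 213 ± 6.04 for Col6a2, 132 ± 5.47 for Col16a1 and 58.3 ± 4.35 for Col6a3. Below these, Col14a1 was at 14.0 ± 4.05, Col7a1 at 5.50 ± 1.10, Col8a1 at 4.51 ± 2.94 and Col12a1 at 2.85 ± 0.520 CPM per kilobase (SD, n = 4). The means of Col7a1 and Col8a1, and those of Col8a1 and Col12a1, differed by less than the larger SD of each pair, while the other neighbours in this order lay further apart than that. In EXP on day 4 Col14a1 was at 56.1 ± 38.1, Col12a1 at 45.8 ± 62.8 and Col8a1 at 23.7 ± 15.1 CPM per kilobase (SD, n = 3), beside 70.3 ± 13.9 for Col6a3 and 2.65 ± 1.73 for Col7a1. In that group the Col6a1 level of 506 ± 198 stood above that of Col6a2, 160.5 ± 55.7, by more than either SD, and so did Col8a1 above Col7a1. The neighbours between them, including Col16a1 at 102 ± 75.9, did not differ beyond the larger SD. Dividing by the longest transcript instead of all exons put Col8a1 (6.91) above Col7a1 (6.12) in CTRL on day 1. It also raised Col6a2 to 360 in that group, beside 730 for Col6a1. In EXP on day 4 it put Col6a2 (272 ± 94.4) above Col16a1 (132 ± 98.4; SD, n = 3) by more than either SD.

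Except where levels are compared over time, rose and fell mean higher and lower in EXP than in CTRL of the same day. On day 1 the genes of the α1 and α2 chains of collagen VI and of the FACITs XIV and XVI fell in EXP, and none of the 8 rose. These were 4 of 8 genes, all lower, where 28.6% of the 17554 tested genes were called and 14.7% were called lower (edgeR quasi-likelihood test, Benjamini-Hochberg adjusted p under 0.05). On day 2, Col8a1, Col12a1 and Col6a3 rose and Col16a1 fell, against 13.4% called over all genes, 7.72% higher and 5.71% lower. Under limma voom 7 of the 8 passed on day 2, against 26% of all genes, and at an adjusted p under 0.01 in edgeR 2 did, against 5.02%. On day 4, Col8a1, Col12a1 and Col14a1 rose and none fell, against 22.5% called over all genes, of which 12.8% were higher and 9.66% lower. The libraries of the 2 groups did not overlap for 4 of the 8 genes on day 1 (23.9% of all genes), 7 on day 2 (39.3%) and 3 on day 4 (25.5%). The median log2 fold change of the 8 genes was -0.94, 0.58 and 0.03 on days 1, 2 and 4, while that of all tested genes was 0.02, 0.02 and 0.03. P-values measure the spread between libraries, which the labels do not tie to named animals and which may be technical in part.

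**Figure D2:**
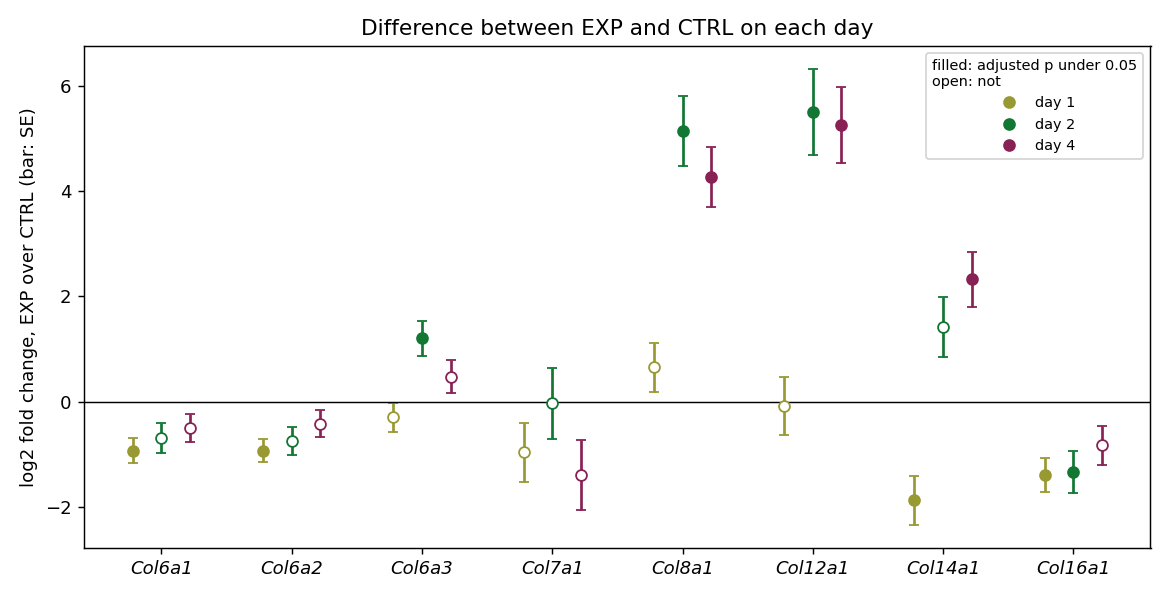
Log2 fold change of EXP over CTRL for each of the 8 genes on days 1, 2 and 4, with its standard error; filled points passed an adjusted p of 0.05. Col8a1 and Col12a1 reach 5.15 and 5.50 on day 2, and Col14a1 goes from -1.88 on day 1 to 2.32 on day 4.

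Col6a1 and Col6a2, which encode the α1 and α2 chains, fell together. Col6a1 was at 2999, 3066, 3032 and 2877 CPM in the CTRL libraries of day 1 and at 1981, 1228, 1259.5, 1395 and 1976 CPM in the EXP libraries, so that every EXP library lay below every CTRL library. Its log2 fold change was -0.93 (SE 0.23, adjusted p 0.00525). Col6a2 was at 1710.0, 1790.0, 1753 and 1827 CPM in CTRL and 1017, 756, 778, 918 and 1149 CPM in EXP, again with no overlap, and its log2 fold change was -0.94 (SE 0.22, adjusted p 0.00296). Among high-side libraries, with 3 CTRL and 2 EXP libraries, the values were -0.94 (adjusted p 0.0394) for Col6a1 and -1.003 (adjusted p 0.0204) for Col6a2. The low side has a single CTRL library of day 1 and gives no value.

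Both genes were also lower in the EXP libraries of day 2, without passing the test. Col6a1 was at 2959.6, 2341 and 3354 CPM in CTRL and 1266, 2011 and 2069 CPM in EXP, which is a difference of -0.70 (SE 0.29, adjusted p 0.115). Col6a2 was at 1715, 1412 and 2012 CPM in CTRL and 732, 1116 and 1207 CPM in EXP, which is a difference of -0.75 (SE 0.27, adjusted p 0.0662). The groups did not overlap for either gene on this day. Col6a1 did pass under limma voom (adjusted p 0.02445). Col6a2 did pass under DESeq2 (adjusted p 0.0376), under limma voom (adjusted p 0.0144) and with day 2 fitted on its own (adjusted p 0.0407). With library totals in place of TMM the day 2 differences were smaller, at -0.23 (adjusted p 0.507) for Col6a1 and -0.29 (adjusted p 0.367) for Col6a2. On day 4 the groups overlapped, with Col6a1 at 3199, 2077, 4132 and 3128 CPM in CTRL and 1346, 2224 and 3077 CPM in EXP. The log2 fold changes were -0.50 (SE 0.27, adjusted p 0.190) for Col6a1 and -0.42 (SE 0.25, adjusted p 0.236) for Col6a2. EXP replicate 3 was the highest of its group, and without it the log2 fold change of Col6a1 was -0.81 (adjusted p 0.0416). Without EXP replicate 1, the lowest, it was -0.24 (adjusted p 0.599). Among low-side libraries it was -0.25 (adjusted p 0.693) for Col6a1 and -0.18 (adjusted p 0.780) for Col6a2, and with library totals -0.23 (adjusted p 0.459) and -0.14 (adjusted p 0.641). The EXP effect on these genes was not shown to differ between days (joint test over days, adjusted p 0.684 for Col6a1 and 0.534 for Col6a2).

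Col6a3, the gene of the α3 chain, moved apart from them. On day 1 it was at 648, 762, 719 and 664 CPM in CTRL and 669, 213, 454, 677 and 819.7 CPM in EXP, and the groups overlapped (log2 fold change -0.30, SE 0.27, adjusted p 0.432). The value was -0.71 (adjusted p 0.294) on the high side of the split and -0.09 (adjusted p 0.847) with library totals in place of TMM. By day 2 the libraries stood at 329, 348 and 376 CPM in CTRL and 905, 698 and 821 CPM in EXP, so that the lowest EXP library was above the highest CTRL library. The log2 fold change of 1.20 (SE 0.33, adjusted p 0.0209) passed the test. That call was lost in 5 of the 6 fits that left out a library of day 2 (without CTRL replicate 1, 2 or 3, or EXP replicate 1 or 3), at adjusted p of 0.0503 to 0.0852. The CTRL level was itself lower on day 2 than on day 1, by a log2 difference of -0.99 (SE 0.32, adjusted p 0.168) that did not pass. On day 4 Col6a3 was at 572, 399, 899 and 551 CPM in CTRL and 1031, 721 and 773 CPM in EXP, with overlap (log2 fold change 0.48, SE 0.31, adjusted p 0.273). It was 0.79 (adjusted p 0.0830) on the low side and 0.84 (adjusted p 0.0619) with library totals.

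The change of the EXP effect on Col6a3 over the days had an adjusted p of 0.0666, and the effect of day 2 exceeded that of day 1 by 1.50 (SE 0.43, adjusted p 0.0585). The joint test over days passed under DESeq2 (adjusted p 0.0271) and under limma voom (adjusted p 0.0214).

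The ratios of the 3 chains within a library do not depend on how libraries are scaled. The log2 ratio of Col6a1 to Col6a2 counts lay between 0.60 and 0.96 in all 22 libraries, whatever the group. The log2 ratio of Col6a3 to Col6a1 on day 1 was -2.10 ± 0.08 (SD) over the 4 CTRL libraries and -1.58 ± 0.57 (SD) over the 5 EXP libraries. On day 2 it was -3.02 ± 0.24 over 3 CTRL and -1.12 ± 0.55 over 3 EXP libraries, and on day 4 it was -2.39 ± 0.14 over 4 CTRL and -1.33 ± 0.84 over 3 EXP libraries. On days 2 and 4 every EXP library had a higher Col6a3 to Col6a1 ratio than every CTRL library of its day. On day 1 EXP replicate 2, at -2.53, was below all CTRL libraries, and the other EXP libraries were above them. These ratios are descriptions and carry no test.

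**Figure D3:**
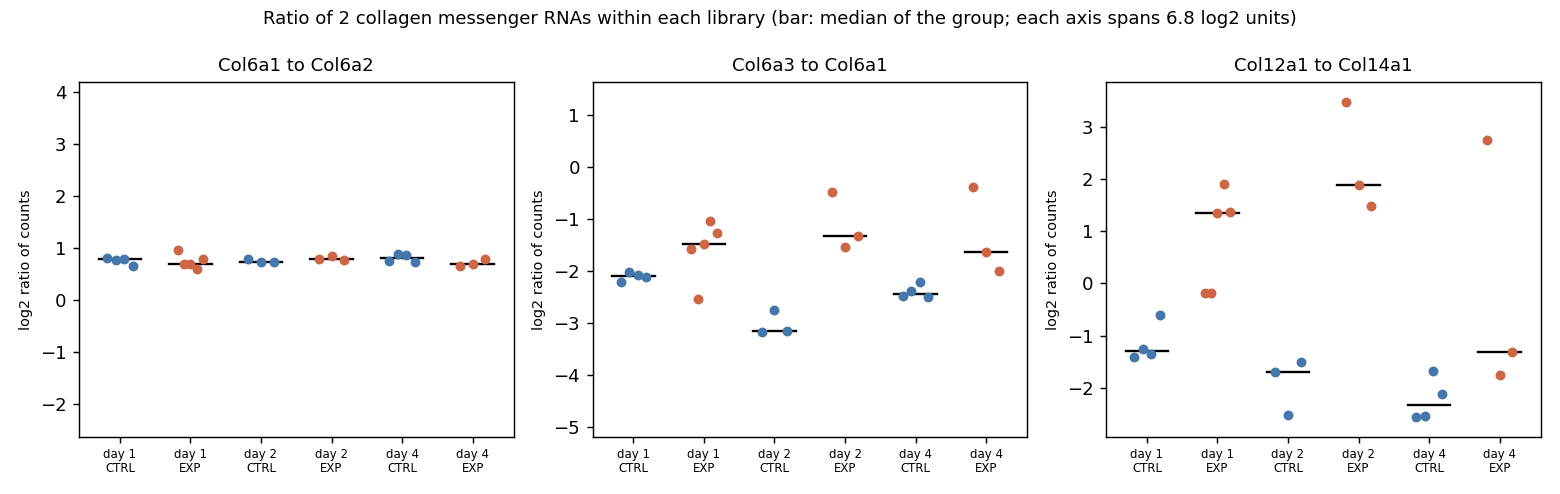
Log2 ratios of counts within each library, for Col6a1 to Col6a2, Col6a3 to Col6a1 and Col12a1 to Col14a1, by group and day; each point is a library and each bar a group median. The Col6a1 to Col6a2 ratio stays between 0.60 and 0.96 throughout, while the other ratios separate EXP from CTRL on day 2.

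Col16a1, whose FACIT product is found in dermis near the epidermal junction and with microfibrils, was lower in EXP on days 1 and 2. On day 1 it was at 861, 927, 916 and 856 CPM in CTRL and 402, 265, 242, 336 and 452 CPM in EXP, with every EXP library below every CTRL library. The log2 fold change was -1.39 (SE 0.33, adjusted p 0.00328), and -1.46 (adjusted p 0.0127) within the high side of the split. Day 2 levels were 1130.1, 1035 and 2029 CPM in CTRL and 371, 696 and 596 CPM in EXP, without overlap, which is a difference of -1.33 (SE 0.40, adjusted p 0.0321). CTRL replicate 3 was the highest library of that day. From day 1 to day 2 the mean went from 890 to 1398 CPM in CTRL and from 339 to 554 CPM in EXP. Neither change passed (log2 difference 0.65, adjusted p 0.430, in CTRL and 0.71, adjusted p 0.282, in EXP).

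The day 2 call of Col16a1 was lost under several alternatives. Its value was -0.97 without CTRL replicate 3 (adjusted p 0.160), -1.12 without EXP replicate 1 (adjusted p 0.152) and -1.39 without EXP replicate 3 (adjusted p 0.0759). Among low-side libraries, which include all 6 of day 2, the value was -1.33 (adjusted p 0.0664), and with no filter on low counts -1.33 (adjusted p 0.0989), so that the adjusted p moved and the fold change hardly did. With library totals in place of TMM the value was -0.88 (adjusted p 0.0686). On day 4 the values were 1013, 896, 1906 and 1086 CPM in CTRL and 358, 425 and 1277 CPM in EXP, with the third EXP library among the CTRL libraries and the other two below them all. The log2 fold change of -0.84 (SE 0.38, adjusted p 0.116) did not pass, and became -1.65 (adjusted p 0.00188) without EXP replicate 3. It was -0.54 (adjusted p 0.389) without EXP replicate 1, -0.54 (adjusted p 0.337) without CTRL replicate 3, and -0.48 (adjusted p 0.584) among low-side libraries.

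Col14a1 encodes the FACIT collagen XIV, which binds decorin on fibrils of mature dermis. It fell on day 1 and rose on day 4. On day 1 it was at 114, 77.6, 130.3 and 71.8 CPM in CTRL and 37.7, 51.2, 19.8, 9.27 and 15.8 CPM in EXP, with no overlap. EXP over CTRL gave -1.88 (SE 0.46, adjusted p 0.00513) on the log2 scale. Within the high side of the split the value was -1.29 (adjusted p 0.0183). On day 4 it was at 84.4, 50.2, 104 and 75.7 CPM in CTRL and 266, 701 and 214 CPM in EXP, so that the lowest EXP library was above the highest CTRL library.

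For Col14a1 the difference on day 4 was 2.32 (SE 0.53, adjusted p 0.00555). It was 2.55 (adjusted p 0.0398) among low-side libraries (2 CTRL and all 3 EXP libraries of that day) and 1.59 (adjusted p 0.0553) without EXP replicate 2, the highest library. Between them, on day 2, Col14a1 was at 23.7, 37.7 and 23.2 CPM in CTRL and 37.8, 53.7 and 135 CPM in EXP. The groups met without overlapping, and the log2 fold change of 1.42 (SE 0.57, adjusted p 0.105) did not pass in edgeR. It passed under DESeq2 (adjusted p 0.0494), under limma voom (adjusted p 0.0161) and with library totals in place of TMM (1.86, adjusted p 0.0194).

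Col12a1 encodes collagen XII, the FACIT of dense connective tissue under tension. On day 1 its level did not separate the groups, at 43.2, 32.5, 51.0 and 47.0 CPM in CTRL and 33.3, 44.9, 50.8, 34.6 and 40.8 CPM in EXP (log2 fold change -0.09, SE 0.56, adjusted p 0.925). On day 2 it was at 7.32, 6.53 and 8.13 CPM in CTRL and 421, 198 and 380.1 CPM in EXP, far apart, with a log2 difference of 5.50 (SE 0.82, adjusted p 4.58e-04), or 45.4-fold. Its CTRL level was lower on day 2 than on day 1, by a log2 difference of -2.57 (SE 0.70, adjusted p 0.117) that did not pass. Its EXP level was higher by 3.03 (SE 0.60, adjusted p 0.00957). On day 4 Col12a1 was at 14.3, 8.67, 32.3 and 17.3 CPM in CTRL and 1799.8, 206 and 86.0 CPM in EXP. EXP replicate 1 stood far above the other two, and all 3 were above every CTRL library. Its difference on day 4 was 5.26 (SE 0.72, adjusted p 2.44e-04), 3.02 (adjusted p 3.97e-04) without EXP replicate 1, and 5.92 (adjusted p 0.0212) among low-side libraries.

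The 2 FACIT genes therefore stood in different proportions in EXP and CTRL. The log2 ratio of Col12a1 to Col14a1 counts on day 1 was -1.16 ± 0.37 (SD) over 4 CTRL and 0.85 ± 0.97 over 5 EXP libraries, and on day 2 it was -1.91 ± 0.54 and 2.28 ± 1.05 over 3 libraries each. On both days each EXP library had the higher ratio. Within EXP on day 1 the ratio was -0.18 and -0.19 in the replicates on the split's high side, and 1.36, 1.90 and 1.37 in those on the low side. The part of the split in this ratio was not tested. On day 4 the CTRL ratio was -2.23 ± 0.41 (SD, n = 4), and the EXP libraries were at 2.76, -1.76 and -1.32, so that replicate 1 had more Col12a1 than Col14a1 counts and the others the reverse.

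Col7a1, the gene of anchoring-fibril collagen VII, passed the test on no day. On day 1 it was at 54.2, 42.5, 69.5 and 60.2 CPM in CTRL and 74.1, 5.57, 11.5, 25.7 and 27.6 CPM in EXP. EXP replicate 1 was the highest of all 9 libraries and the other 4 EXP libraries were below every CTRL library. The log2 fold change was -0.97 (SE 0.56, adjusted p 0.206), -1.66 (adjusted p 0.0228) without EXP replicate 1, and -1.40 (adjusted p 0.0350) under limma voom, which weights libraries by quality. Within the high side of the split, which holds EXP replicates 1 and 2, it was -0.51 (adjusted p 0.733). On day 2 the levels were 37.3, 34.5 and 56.8 CPM in CTRL and 45.8, 50.4 and 29.2 CPM in EXP, intermixed, with a log2 difference of -0.04 (SE 0.68, adjusted p 0.981) whose sign turned with library totals in place of TMM (0.44). On day 4 they were 39.0, 33.5, 137 and 77.2 CPM in CTRL and 25.8, 10.2 and 45.8 CPM in EXP, overlapping, with a log2 difference of -1.39 (SE 0.66, adjusted p 0.136). It was -0.41 (adjusted p 0.651) among low-side libraries and -0.87 (adjusted p 0.378) without CTRL replicate 3, the highest. The exons of Col7a1 share 36 bases with those of the microRNA gene Mir711 on the same strand.

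Col8a1, the α1 chain gene of collagen VIII, was far higher in EXP than in CTRL on days 2 and 4. On day 1 it was at 11.1, 25.9, 38.9 and 65.3 CPM in CTRL and 29.6, 57.8, 49.4, 63.1 and 77.1 CPM in EXP, overlapping, with a log2 difference of 0.65 (SE 0.47, adjusted p 0.317). On day 2 it was at 6.37, 4.28 and 7.32 CPM in CTRL and 299, 184 and 156 CPM in EXP, with a log2 difference of 5.15 (SE 0.67, adjusted p 1.53e-04), or 35.4-fold. Its CTRL level was lower on day 2 than on day 1, by a log2 difference of -2.56 (SE 0.59, adjusted p 0.0635) that did not pass. Its EXP level was higher by 1.94 (SE 0.49, adjusted p 0.0391), a call lost under several alternatives given below. On day 4 Col8a1 was at 9.87, 4.59, 13.2 and 11.0 CPM in CTRL and 273, 233 and 50.8 CPM in EXP. The lowest EXP library, replicate 3, was above the highest CTRL library. Its difference on day 4 was 4.27 (SE 0.57, adjusted p 2.31e-04), and 4.68 (adjusted p 0.00634) among low-side libraries.

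Col8a2, the gene of the second collagen VIII chain, did not follow Col8a1. On day 1 it averaged 3.52 ± 0.510 CPM (SD) over 4 CTRL and 0.513 ± 0.143 CPM over 5 EXP libraries, and fell, with a fold change on the log2 scale of -2.77 (SE 0.49, adjusted p 3.55e-04). On day 2 it was at 1.89 ± 0.332 CPM in CTRL and 0.438 ± 0.377 CPM in EXP (SD, n = 3 each), which is a difference of -2.11 (SE 0.62, adjusted p 0.0286). That call did not hold without CTRL replicate 1, 2 or 3 or EXP replicate 1 or 3 of day 2 (adjusted p 0.0506 to 0.137). The EXP means of days 1 and 2 were not far above the floor of 0.0993 to 0.140 CPM. The size of these fold changes is therefore less certain. On day 4 the change of Col8a2, at -0.57 (SE 0.53, adjusted p 0.463), did not pass and turned in sign without CTRL replicate 3 (0.15).

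The EXP effect differed between days for Col8a1, Col12a1 and Col14a1, 3 of the 8 genes, where 8.82% of all tested genes were called. Their joint adjusted p-values were 0.00187, 0.00107 and 0.00236. The log2 effect of day 2 exceeded that of day 1 by 4.50 (SE 0.77, adjusted p 0.00493) for Col8a1. For Col12a1 it did so by 5.59 (SE 0.95, adjusted p 0.00467), and for Col14a1 by 3.30 (SE 0.74, adjusted p 0.0223). All 3 passed, against 2.97% of all genes. Col14a1 did not without CTRL replicate 1 or 3 or EXP replicate 3 of day 2 (adjusted p 0.0599 to 0.0815). The effect of day 4 exceeded that of day 1 by 3.62, 5.35 and 4.21 in the same order (adjusted p 0.00364, 0.00118 and 0.00134), against 13.3% called over all genes. That of Col12a1 was 3.09 (adjusted p 0.00190) without EXP replicate 1 of day 4. Between days 2 and 4 no effect passed, for these genes or any other (edgeR, 0% of all genes).

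Levels were also compared over time within each arm. Among EXP libraries, Col8a1, Col12a1 and Col14a1 changed over the days (adjusted p 0.0210, 8.51e-04 and 2.11e-04), 3 of 8 genes against 14.3% of all. That of Col8a1 did not pass without EXP replicate 1 or 3 of day 1 or EXP replicate 2 of day 4. Nor did it pass with the library split as a covariate (adjusted p 0.0520) or with no filter on low counts (adjusted p 0.0628). EXP replicates 1 and 2 of day 1 were on the high side of the split, and the EXP libraries of days 2 and 4 on the low side. Between days 1 and 2, where 2.63% of all genes were called, Col12a1 rose in EXP by 3.03 (SE 0.60, adjusted p 0.00957) on the log2 scale. Col8a1 rose by 1.94 (SE 0.49, adjusted p 0.0391) over the same interval, a call lost without any EXP library of day 1 except replicate 5, without any EXP library of day 2, and without CTRL replicate 3 of day 1 or EXP replicate 2 of day 4 (adjusted p 0.0503 to 0.197). It was also lost with the library split as a covariate (adjusted p 0.0761) and with no filter on low counts (adjusted p 0.1025). From day 1 to day 4, where 19% of all genes were called, 4 of the 8 genes rose in EXP. Col12a1 rose by 4.09 (SE 0.62, adjusted p 2.38e-04), or 1.83 (adjusted p 0.00351) without EXP replicate 1 of day 4. Col8a1 rose by 1.74 (SE 0.49, adjusted p 0.0183), a call lost without EXP replicate 1 or 2 of day 4 (adjusted p 0.121 and 0.0940), under limma voom (adjusted p 0.0598) and with no filter on low counts (adjusted p 0.0529). Col16a1 rose by 1.02 (SE 0.35, adjusted p 0.0454), a call near the threshold that was lost in 12 of the 22 fits leaving out a library: any CTRL library of day 1, any EXP library of day 1 except replicate 5, CTRL replicate 1 or EXP replicate 3 of day 2, and CTRL replicate 4 or EXP replicate 3 of day 4. Without the last of these it was 0.21 (adjusted p 0.673), and under limma voom 0.64 (adjusted p 0.244). Col14a1 rose by 3.88 (SE 0.51, adjusted p 7.70e-05), while its steps of 1.50 (SE 0.49, adjusted p 0.103) to day 2 and 2.38 (SE 0.59, adjusted p 0.0894) from there to day 4 did not pass. Day and any batch that follows the day cannot be told apart.

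Among CTRL libraries 0 of the 8 genes passed over the days in edgeR, against 0.291% of all genes, and 4 of 8 had an unadjusted p under 0.05, against 14.2% of all genes. DESeq2 called 2 of the 8, against 2.99% of all genes, and limma voom 3, against 3.43%. In edgeR 1 passed with library totals in place of TMM, against 0.929%, and 1 with totals without the 10 largest genes, against 0.581%. The CTRL mean of Col8a1 was 35.3 ± 23.0 CPM on day 1 (SD, n = 4), 5.99 ± 1.56 on day 2 (SD, n = 3) and 9.64 ± 3.64 on day 4 (SD, n = 4). That of Col12a1 was 43.4 ± 7.92, 7.33 ± 0.802 and 18.2 ± 10.1 CPM on the same days. The CTRL libraries of both genes did not overlap between days 1 and 2, with log2 differences of -2.56 (SE 0.59, adjusted p 0.0635) and -2.57 (SE 0.70, adjusted p 0.117). In edgeR these CTRL differences did not pass after adjustment, at unadjusted p of 3.25e-04 and 0.00172. The EXP levels of both genes rose over the same interval, by 1.94 and 3.03 (edgeR, unadjusted p 8.28e-04 and 7.65e-05). For Col8a1 the CTRL difference was the larger in size and had the smaller unadjusted p. The adjustment was made within each comparison, so passing in 1 arm alone does not rank the changes. The joint test over days within CTRL did pass for both genes under 2 other methods. Adjusted p was 1.89e-04 for Col8a1 and 0.0114 for Col12a1 under DESeq2, and 0.0485 and 0.0249 under limma voom. In edgeR it passed for Col8a1 with library totals (adjusted p 0.0334) and with totals without the 10 largest genes (adjusted p 0.0435).

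**Figure D4:**
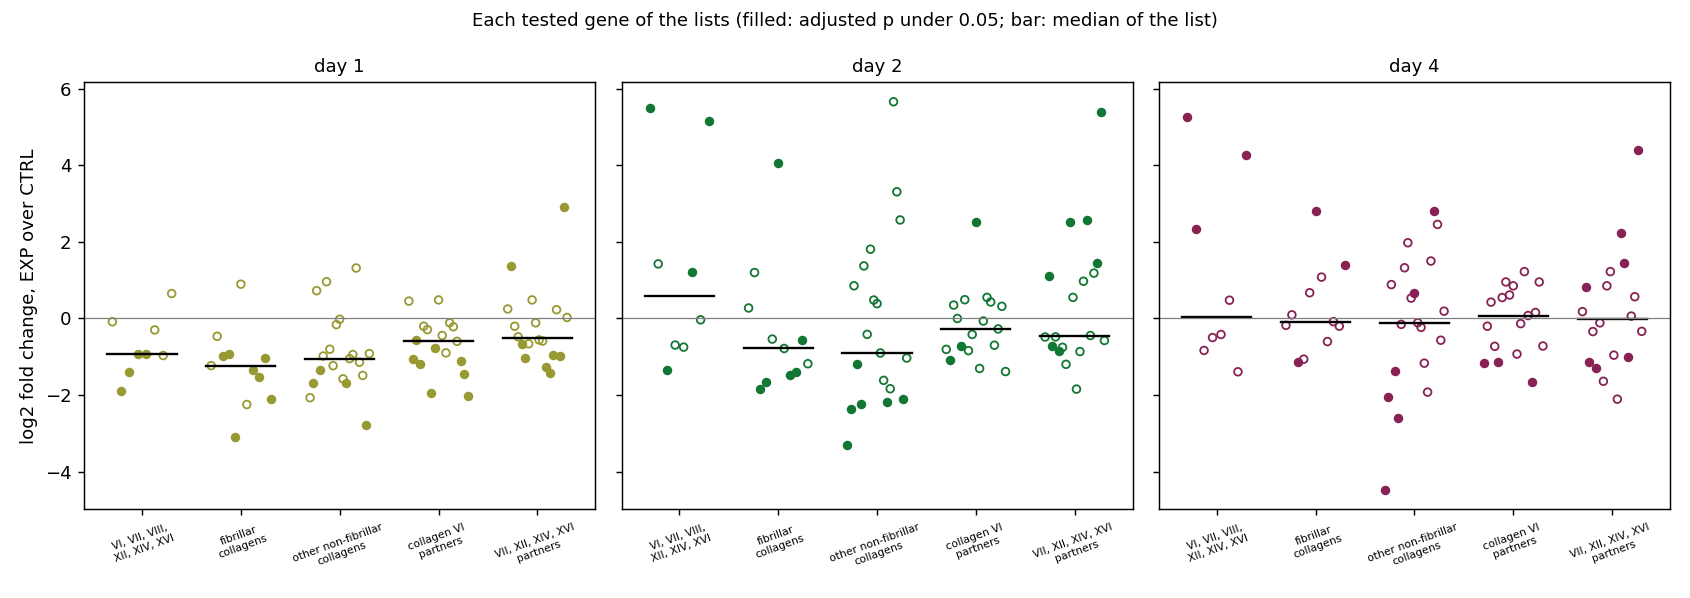
Log2 fold change of EXP over CTRL on days 1, 2 and 4 for each tested gene of the 5 gene lists, with the median of each list as a bar; each point is a gene, filled where its adjusted p was under 0.05. The median of the 8 genes is -0.94, 0.58 and 0.03, and that of the fibrillar chains -1.23, -0.79 and -0.08.

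Fibrillar collagens form the fibrils that the FACITs decorate. Of all tested genes, 13.9% were called higher and 14.7% lower on day 1. These shares were 7.72% and 5.71% on day 2, and 12.8% and 9.66% on day 4. Of 11 fibrillar chain genes, 0 rose and 7 fell on day 1, 1 rose and 5 fell on day 2, and 2 rose and 1 fell on day 4, with median log2 fold changes of -1.23, -0.79 and -0.08. On day 1 only 4 fell without CTRL replicate 1, EXP replicate 3 or EXP replicate 4 of that day, and 2 fell on day 2 without EXP replicate 1. On day 4, 1 rose and 0 fell without EXP replicate 1 or 2. They held 23.3 ± 2.19% of all counts in CTRL and 12.5 ± 2.34% in EXP on day 1, whereas the 8 genes held 0.644 ± 0.0364% and 0.397 ± 0.0958% (SD, n = 4 and 5). On day 2 the fibrillar share was 29.1 ± 1.92% in CTRL and 12.6 ± 4.78% in EXP, and the share of the 8 genes 0.535 ± 0.0942% and 0.556 ± 0.0561% (SD, n = 3 each). Col5a1, a chain of collagen V that starts fibrils, fell on days 1 and 2, at log2 fold changes of -1.52 (adjusted p 3.44e-05) and -1.41 (adjusted p 0.00144). Col27a1, a minor fibrillar chain, was the riser of day 2 at 4.05 (adjusted p 0.00171) and also rose on day 4, at 2.81 (adjusted p 0.00360). Col5a3 was at -2.09 (adjusted p 2.55e-04) on day 1 and 1.38 (adjusted p 0.0177) on day 4, the latter not passing without EXP replicate 1 or 2 of day 4 (adjusted p 0.0569 and 0.159).

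Of 25 other non-fibrillar chain genes, 19 were tested. On day 1, 0 rose and 4 fell, against 28.6% of all tested genes called. On day 2, 0 rose and 6 fell, against 13.4%, and on day 4, 2 rose and 4 fell, against 22.5%. The list medians were -1.05, -0.90 and -0.11. With library totals in place of TMM 5 rose and 5 fell on day 2, against 26.4% of all genes called, 90.5% of those higher. On day 4, 5 rose and 4 fell with library totals, against 30.1% called, 80.8% of those higher. On day 1, 1 rose and 6 fell without EXP replicate 2, on day 2, 2 fell without EXP replicate 1, and on day 4, 0 rose and 3 fell without EXP replicate 2. Col20a1, another FACIT, fell on days 2 and 4, at log2 fold changes of -2.23 and -2.61 (adjusted p 0.00480 and 0.00145), days on which Col12a1 rose. Col18a1, a basement membrane collagen, fell on day 1, at -1.35 (adjusted p 7.18e-04), on day 2, at -1.18 (adjusted p 0.0184), and on day 4, at -1.38 (adjusted p 0.00445), or -1.24 (adjusted p 0.0659) among low-side libraries. Its day 2 call was lost without CTRL replicate 3 or EXP replicate 1 (adjusted p 0.0732 and 0.109) and with library totals in place of TMM (adjusted p 0.0614).

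Among genes of collagen VI receptors and binding partners, 17 of 19 were tested. On day 1, 0 rose and 8 fell, against 28.6% of all tested genes called. On day 2, 1 rose and 2 fell, against 13.4%, and on day 4, 0 rose and 3 fell, against 22.5%. The list medians were -0.60, -0.27 and 0.08. With library totals in place of TMM 4 rose and 0 fell on day 2, against 26.4% of all genes called, 90.5% of those higher. On day 4, 6 rose and 3 fell with library totals, against 30.1% called, 80.8% of those higher. Without EXP replicate 3, 2 rose and 3 fell on day 4. Antxr2, a cell surface receptor of collagen VI, averaged 149 ± 22.1 CPM (SD) over 4 CTRL and 71.2 ± 15.6 CPM over 5 EXP libraries on day 1, and fell, at a log2 fold change of -1.06 (adjusted p 3.06e-04). It fell on day 2 too, at -1.07 (adjusted p 0.00447), or -0.62 (adjusted p 0.0507) with library totals in place of TMM. Fn1, the fibronectin gene, fell on day 1 at -1.95 (adjusted p 2.62e-04) and was at 0.95 (adjusted p 0.0711) on day 4. Itga1, the α1 integrin subunit that binds collagens, was the riser of day 2, from 6.01 ± 3.26 CPM in CTRL to 34.1 ± 14.6 CPM in EXP (SD, n = 3 each), which is a difference of 2.51 (SE 0.47, adjusted p 0.00181).

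Among genes for partners of collagens VII, XII, XIV and XVI, 18 of 19 were tested. On day 1, 2 rose and 6 fell, against 28.6% of all tested genes called. On day 2, 5 rose and 2 fell, against 13.4%, and on day 4, 4 rose and 3 fell, against 22.5%. The list medians were -0.52, -0.46 and -0.03. On day 2, 7 rose and 0 fell with library totals in place of TMM, against 26.4% of all genes called, 90.5% of those higher. Without EXP replicate 1, 4 rose and 0 fell on day 2. On day 4, 6 rose and 2 fell with library totals, against 30.1% called, 80.8% of those higher. Cd44, a hyaluronan receptor that also binds collagen XIV, rose on all 3 days, by 1.37, 1.11 and 0.81 (adjusted p 1.52e-05, 0.00142 and 0.00535), the last not passing with day 4 fitted on its own (adjusted p 0.0652). Fbln1, the fibulin-1 gene, fell on all 3 days, at -0.66, -0.84 and -1.30 (adjusted p 0.00329, 0.00669 and 2.44e-04), although not on day 1 within the high side of the split (-0.45, adjusted p 0.176) or on day 2 without EXP replicate 1 (adjusted p 0.0509) or with library totals in place of TMM (adjusted p 0.0563). Tnc, the gene of tenascin-C, which binds collagen XII, was picked out after its values were seen. It rose by 2.92, 5.39 and 4.40 on days 1, 2 and 4 (adjusted p 0.0150, 0.00457 and 0.00428). Within the high side of the split its day 1 value was 2.11 (adjusted p 0.0968).

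Markers of other cells were read beside the rises of Col8a1, Col12a1 and Col14a1. On day 4 the summed level of 8 endothelial markers was 4.16 to 11.6 CPM in CTRL and 24.8 to 58.0 CPM in EXP, and that of 6 adipocyte markers 0.545 to 2.23 CPM and 43.6 to 502 CPM. On day 2 the endothelial sum was 0.548 to 0.809 CPM in CTRL and 2.24 to 7.78 CPM in EXP, and the adipocyte sum 0.249 to 3.13 CPM and 8.03 to 88.9 CPM. On day 1 both sums overlapped and had the lower median in EXP. The endothelial sum was 5.76 to 9.77 CPM in CTRL and 1.02 to 8.73 CPM in EXP (medians 8.28 and 1.43). The adipocyte sum was 1.82 to 24.9 CPM in CTRL and 0.835 to 9.65 CPM in EXP (medians 14.0 and 1.15). All 8 endothelial and all 6 adipocyte markers had counts in the EXP group of day 4, while Plin1 and Lep were at 0 in every CTRL library of that day. The sum of 8 pericyte and smooth muscle markers was 52.0 to 100.4 CPM in CTRL and 28.3 to 48.7 CPM in EXP on day 1, 89.6 to 103 CPM and 60.1 to 68.6 CPM on day 2, and 62.0 to 129 CPM and 57.7 to 85.2 CPM on day 4, overlapping only on day 4. On day 1, when 4 of the 8 genes fell, the sum of the 8 fibroblast markers was 138694 to 192068 CPM in CTRL and 74563 to 117720 CPM in EXP, and that of 8 hematopoietic markers 43.2 to 91.2 CPM and 37.0 to 54.0 CPM. The fibroblast sum was also apart on day 2, at 236947 to 289314 CPM in CTRL and 49301 to 120830 CPM in EXP, and on day 4, at 188983 to 249659 CPM and 41272 to 185714 CPM. The fibroblast markers include the fibrillar chains Col1a1 and Col1a2. With Col3a1 these held 22.9 ± 2.19% of counts in CTRL and 12.2 ± 2.34% in EXP on day 1 (SD, n = 4 and 5). The fibroblast sum is therefore not independent of the fibrillar share. It also includes Cd34 and Pdgfra, whose proteins were used to sort the cells. The hematopoietic sum was apart on day 2, at 114 to 165 CPM in CTRL and 66.2 to 95.8 CPM in EXP. On day 4 it overlapped, at 108 to 150 CPM and 71.1 to 143 CPM. The part of any of these cell types in the collagen results was not tested.

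Across all 22 libraries the log2 CPM of Col6a1 and Col6a2 had a Pearson correlation of 0.988, and of 0.972 once group means were removed. Col6a1 and Col16a1 correlated at 0.919 (0.867 within groups), and Col6a1 and Col6a3 at 0.076 (0.373 within groups). Col8a1 and Col12a1 correlated at 0.912 across libraries and 0.594 within groups. Col12a1 and Col14a1 correlated at 0.492 and 0.10. These coefficients describe libraries that share day, treatment and scaling.

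Among 9823 genes averaging 5 CPM or more, those nearest to each gene by this correlation over 22 libraries were as follows. Besides Col6a2, Col6a1 was nearest to Tmem43 (0.926) and Pcdh20 (0.922), and Col6a2 to Col6a1, Dmd (0.915) and Pcdh20 (0.912). Genes near Col6a3 included Dclk1 (0.813) and Zbtb38 (0.799), and Col7a1 was nearest to Ptk7 (0.854), Megf6 (0.851) and Slc12a4 (0.849). Col8a1 was nearest to Erg28 (0.932), Gm3571 (0.927) and Nutf2 (0.921), and Col12a1 to Chaf1b (0.919), Col8a1 (0.912) and Loxl1 (0.905). Col14a1 was nearest to Tmeff2 (0.947), Tek (0.924) and Sh3bp5 (0.912), and Col16a1 to Man2b2 (0.956), Camkk1 (0.940) and Slc17a9 (0.926). Tek is one of the endothelial markers above.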

How the data were processed

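The authors deposited raw read counts per gene for all 22 libraries, with Ensembl mouse identifiers. Per the submitters' processing notes, Trimmomatic was used and the build was mm39. Aligner, counting tool, annotation release and strandedness are not given in the sources used here. GENCODE M21 gave a symbol for 52081 of 55414 identifiers and the exon lengths; because its build differs, gene coordinates are not printed, and promoter windows are RefSeq's on GRCm38.p6. Counts were analysed in R 4.3.3 with edgeR 4.0.16: filterByExpr (minimum count 10), TMM, robust glmQLFit and glmQLFTest on all 22 libraries with 6 group means and 16 residual degrees of freedom, adjusted over all 17554 tested genes and called under 0.05. Log2 CPM used a prior count of 2. The 3-count floor covers counting error only. Chi-square per degree of freedom between replicates was 25.5 to 423, well above sampling noise, so none was merged. The test was first tested on simulated data.

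The 8 genes and all lists were chosen with earlier results of these data known. Of each related list up to 4 genes with the smallest daily p were named, and for each of the 8 genes the 3 most correlated, of which 1 is not reported here. Alternatives were DESeq2 1.42.0, limma voom (limma 3.58.1), other scalings, no filter, single-day fits, a replicate block, the library split as covariate or within a side, leaving out each library, and a threshold of 0.01. Same-numbered libraries of a day deviated together only weakly (correlations -0.0664 to 0.164 over 10 pairs, 3 of them over 0.1), so the numbers were not taken as pairs.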

Additional observations from a re-analysis of the deposited data

Results flagged for a closer look

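The EXP effect on 3 genes differed between days by a test of the difference itself: Col8a1 (edgeR joint test, adjusted p 0.00187), Col12a1 (adjusted p 0.00107) and Col14a1 (adjusted p 0.00236). The log2 effects on days 1, 2 and 4 were 0.65, 5.15 and 4.27 for Col8a1, -0.09, 5.50 and 5.26 for Col12a1, and -1.88, 1.42 and 2.32 for Col14a1. Only Col14a1 of these 3 passed in both directions, lower on day 1 and higher on day 4. Dixon's test of the highest and lowest library was applied to the groups of 4 or 5 libraries, for the CPM of the 8 genes, their share of counts and 3 ratios between them. It marked 0 of 36 groups of values, where chance would mark about 1 in 20. Groups of 3, among them the EXP libraries of day 4, were not tested.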

How the results depend on the processing

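Of 792 values of the 8 genes on the 3 days under the alternatives, 756 kept direction and side of the threshold, 14 lost the call, 14 gained one and 8 turned in sign. Of these values 528 came from leaving out 1 library, and 510 of them were kept. Many of those fits left out a library of another day, which hardly moves a fold change. Under the other alternatives 246 of 264 were kept. Many of the 792 values belong to results not called at first, which could not lose a call. The pooled share kept is therefore no measure of how firm the calls are. All 14 losses fell on Col6a3 and Col16a1 on day 2 and on Col14a1 on day 4. The count of genes called on day 2, 4 (13.4% of all genes), became 7 under limma voom (4 higher, 3 lower, against 26% of all genes). At an adjusted p under 0.01 it was 2, against 5.02%. When a library was left out it was 2 to 5, the 2 being reached without CTRL replicate 3, EXP replicate 1 or EXP replicate 3 of day 2. The day 1 count of 4 was 4 to 5, the day 4 count of 3 was 2 to 5 (5 without EXP replicate 3, 2 without EXP replicate 2) and the count of day-dependent effects 3 to 4 when a library was left out. The count over days within CTRL, 0, became 2 under DESeq2 (2.99% of all genes) and 3 under limma voom (3.43%). It became 1 with library totals without TMM (0.929%) or totals without the 10 largest genes (0.581%). When a library was left out it was 0 to 2 (2 without EXP replicate 1 of day 4, 1 without EXP replicate 3 of day 4). The count within EXP was 2 to 4.

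Values that turned in sign had not passed the test. Col7a1 on day 2 was 0.44 without TMM, 0.0715 with totals without the 10 largest genes, 0.11 with the replicate block and -0.19 to 0.22 when a library was left out. Col12a1 on day 1 was 0.0925 without TMM, 0.0089 with the library split as a covariate, and -0.20 to 0.0069 when a library was left out. Within EXP from day 2 to day 4, Col12a1 was -0.35 under limma voom and -1.16 to 1.59 when a library was left out, Col8a1 -0.55 to 0.25, and Col16a1 -0.0626 under limma voom and -0.50 to 0.61 when a library was left out. On day 4, Col5a1 was 0.0489 under limma voom, 0.26 without TMM, 0.11 on the low side of the split and -0.25 to 0.0377 when a library was left out. Col8a2 was 0.0986 under limma voom, 0.69 on the low side and -0.996 to 0.15 when a library was left out, and without TMM Col5a2 was 0.11 and Antxr2 0.11. The cause was not tested.

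Library totals without TMM moved the median of all genes to 0.21, 0.49 and 0.36 on days 1, 2 and 4, and the share of calls that were higher to 66.2%, 90.5% and 80.8%, from 48.7%, 57.5% and 57.0%. Fitting day 4 alone left 1072 calls over all genes, against 3943, and fitting day 2 alone gave 3459 against 2359. With the replicate block the counts of the 8 genes were 4, 4 and 3 on days 1, 2 and 4, against 24.6%, 12.5% and 19.1% of all genes. There were 4 day-dependent effects (4.41% of all genes) in place of 3, the added gene being Col6a3 (adjusted p 0.0442). With the block the rises within EXP from day 1 to day 2 did not pass for Col12a1 (2.87, adjusted p 0.0517) and Col8a1 (2.27, adjusted p 0.0588), nor did that from day 1 to day 4 for Col16a1 (adjusted p 0.0819), nor Tnc on day 1 (1.99, adjusted p 0.0851) or Col5a3 on day 4 (adjusted p 0.0584). The pairing rests on shared numbers alone. The lowest count of any of the 8 genes in a library was 82, far over the floor of 3.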
